A study of Drosophila melanogaster with 6 samples.

Results

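The Wnt gene cluster of Drosophila melanogaster was examined as the 170 kb of chromosome arm 2L that begin at position 7200000 of FlyBase release 5. Its members were the GAGA factor (GAF) binding peaks whose midpoint lay in that region, 12 of the 11713 peaks in the list and of the 1355 peaks on 2L. GAF, the product of the Trl gene, had been mapped by ChIP-seq, in which chromatin is immunoprecipitated and its DNA sequenced, in whole embryos aged 8 to 16 h. There were 3 GAF ChIP libraries, made with a rabbit polyclonal serum, and 3 libraries of input DNA, all from mass collections of embryos and therefore from pooled animals. ChIP and input shared the strain Y cn bw sp. Its genotype included y[1] and oc[R3.2], then Gr22b[1] with Gr22d[1] and cn[1]. It also included CG33964[R4.2] and bw[1] with sp[1], and LysC[1] with lab[R4.2], as well as MstProx[1] and GstD5[1] with Rh6[1]. The data used here are 1 peak list for all libraries together, so no value below has a replicate error or a test, and the depth per library is unknown.

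Wnt proteins are secreted, lipid-modified ligands that bind Frizzled receptors together with the co-receptor Arrow. Through Dishevelled, the signal stops the Axin, Apc and Shaggy complex from destroying Armadillo, the fly beta-catenin, which then acts with the DNA-binding protein Pangolin. Wingless, encoded by wg, is the founding fly ligand and is known for segment polarity in the embryonic epidermis and for wing patterning. Wnt6 and Wnt10 are paralogs that lie beside wg, a neighbourhood found in many animals, and Wnt4 is a further ligand on its other side. GAF binds GA-rich DNA, opens chromatin, and is known from promoters and from Polycomb response elements.

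The gene table used, on release 6, served for names and order alone. All 4 genes of the cluster were found in it on 2L, in the order Wnt4, wg, Wnt6, Wnt10. CG31909 stood between Wnt4 and wg, and the non-coding lncRNA:CR45304 between wg and Wnt6. Before Wnt4 came asRNA:CR44989, Ndae1 (a sodium-driven anion exchanger), CG43799, CG43800 and CG13786. After Wnt10 came asRNA:CR44063, ninaC (a myosin with a kinase domain, of photoreceptors), CG5149, gudu and CG5160. The table holds 7 Wnt genes, and the other 3 lie elsewhere, Wnt2 on 2R, Wnt5 on X and wntD on 3R. Of 18 further genes of the Wingless pathway that were looked up, among them fz, arr, dsh, Axn, sgg, arm and pan, 0 lie on 2L. A release 5 annotation was not used here, so the place of the cluster within these bounds was not checked. The peaks are therefore given by position and in their order along the arm, and none was assigned to Wnt4, wg, Wnt6 or Wnt10.

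The 12 peaks fell into 2 groups separated by a long stretch without any listed peak. The first 8 lay between 7219247 and 7250941 and included the 4 strongest. The last 4 lay between 7343497 and 7350326, and their highest score was 22.32. The 92555 bp between the groups made up 54.4% of the region. Each score is a value given by the authors' peak calls. It ran from 5.75 to 2174.57 over the whole list with a median of 64.7, and its scale is not given in the sources used here.

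**Figure D1:**
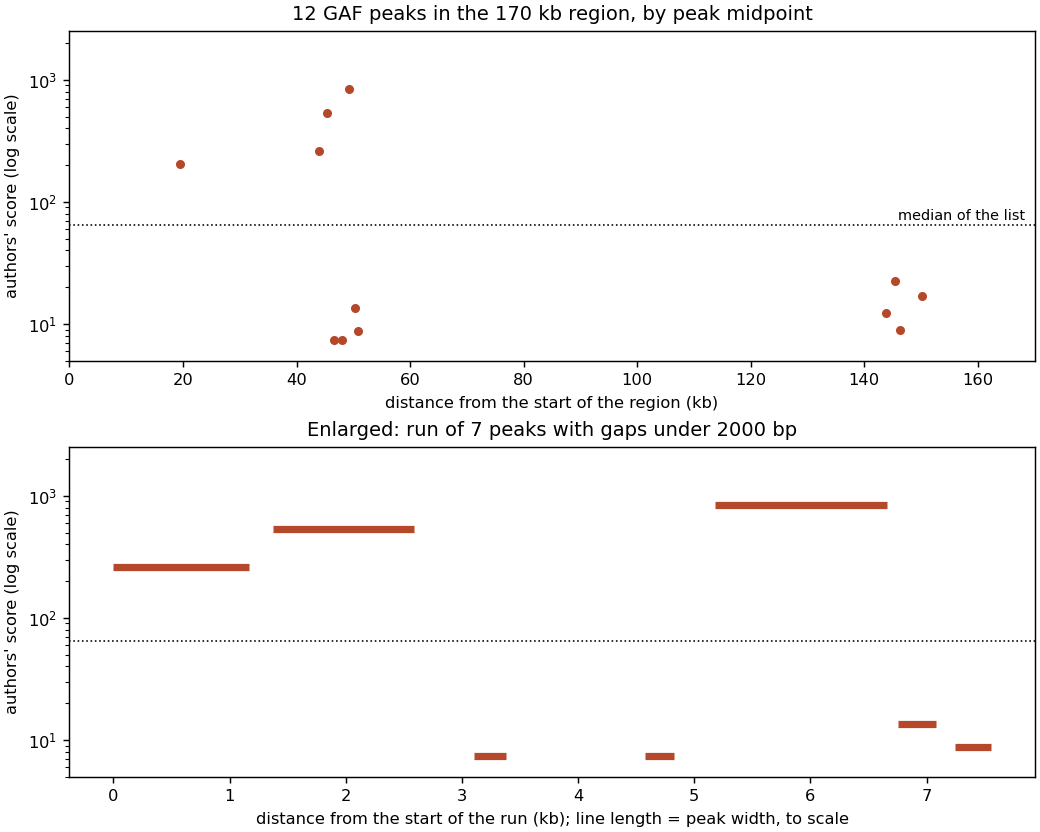
GAF peaks of the Wnt region, with the authors' score on a log axis against distance in kb from the start of the region (upper panel, 1 point per peak) and from the start of the run of 7 peaks (lower panel, lines drawn to the width of each peak). The 4 peaks above the dotted line, the list median of 64.7, all lie before the 92555 bp gap, and the 4 peaks after it score 22.32 or less.

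A single peak opened the region. It spanned 7219247 to 7219857, was 611 bp wide and scored 203.16, higher than 68.9% of the list. The nearest listed peaks were 19129 bp before it and 23533 bp after it, so it stood alone on both sides.

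Next came a run of 7 peaks between 7243391 and 7250941, each under 2000 bp from the next. The run spanned 7551 bp, and its peaks covered 66.4% of that length. It held 3 strong, wide peaks with 4 weak, narrow ones between and after them. The first of the strong peaks, from 7243391 to 7244557, was 1167 bp wide and scored 259.05. It was followed after 204 bp by a 1215 bp peak, 7244762 to 7245976, with a score of 534.89. The third, from 7248571 to 7250050, had the highest score of the region, 838.42, and the largest width, 1480 bp.

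The strongest peak ranked 836 by score and 978 by width among the 11713 peaks, and 143 and 169 among those of 2L. The nearest peak of 2L with a higher score lay 244391 bp away. For 43 of the 1355 peaks of 2L, 3.17%, the nearest stronger peak was farther than that. The peak was thus the highest listed on 2L within that distance, although its score was well under the highest of the arm. That share cannot show an unusual distance, because the peak was picked as the region's strongest and set against all peaks of 2L. Of the 133 other 170 kb stretches described below, 61 had a lower highest score and 72 a higher one. Peaks scoring 814.2 (ending at 7189055) and 774.6 (starting at 7417846) lay within that distance, outside the region.

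The weak peaks of the run had low scores in the list. A pair of narrow peaks lay between the strong peaks of scores 534.89 and 838.42. The one from 7246498 to 7246766 (269 bp) scored 7.34 and the one from 7247968 to 7248216 (249 bp) scored 7.44, ranks 11651 and 11649 of 11713. After the strongest peak, a 325 bp peak from 7250143 to 7250467 scored 13.41, above 15.3% of the list, and began 92 bp past its end. A 306 bp peak from 7250636 to 7250941 scored 8.71 and closed the run, 168 bp further on. These 4 weak peaks each lay within 521 bp of a stronger one, which for the 8.71 peak was the weak peak of score 13.41. Of the 680 peaks of 2L under the list median, 48.5% had a stronger peak within 1000 bp.

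Runs of this size were uncommon but present elsewhere on the arm. On 2L, 119 runs of 3 or more peaks had gaps under 2000 bp, and 14 of them held 7 or more peaks. Of the 5 runs with 7 peaks, this one included, spans ranged from 6684 to 20596 bp and highest scores from 27.26 to 1583.22. This run had the median span of the 5, and 1 of the other 4 had a higher top score.

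The gap that followed reached from 7250942 to 7343496. It was the 32nd longest of 1354 gaps on 2L, longer than 97.6% of them, and 157 of 7423 gaps on the chromosome arms were longer. These ranks set the longest of the region's 11 inner gaps against all single gaps. Of the 133 other 170 kb stretches described below, 23 had a longer empty part, with a median of 64956 bp over the 133. Of the 31 longer gaps on 2L, 1 had a run of 3 or more peaks on both sides, as this one does, and 6 had such a run on at least 1 side. Those last counts were chosen after the values were seen, and the same shares over all 1354 gaps are not given here. A gap holds no peak that was listed. With no signal track and an unknown depth, GAF binding below the calling threshold in it was not measured here.

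Weak peaks resumed with a run of 3 between 7343497 and 7346343, which spanned 2847 bp. The first, to 7344027, was 531 bp wide and scored 12.33. Its width lay above 58.9% of the list and 49.2% of 2L, and its score above 12.3% and 14.0%. The second, from 7345243 to 7345618, was 376 bp wide and scored 22.32. The third, from 7346107 to 7346343, was 237 bp wide and scored 8.91. The highest score of this run was low for a run, since 19 of the 119 runs of 2L had a lower one. The last member, from 7350111 to 7350326, stood 3767 bp further on with a width of 216 bp and a score of 16.86. It was the narrowest of the 12.

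The stretch without a stronger peak was longer than the gap itself. From the end of the strongest peak to the next listed peak at or above the median score, 167795 bp passed, from 7250051 to 7417845. It held 7 weaker peaks, none above 22.32. Of the 674 such intervals on 2L, with a median of 17059 bp, 13 were longer. The peak that ended it, 7417846 to 7423677, lay past the upper bound, was 5832 bp wide and scored 774.6.

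**Figure D2:**
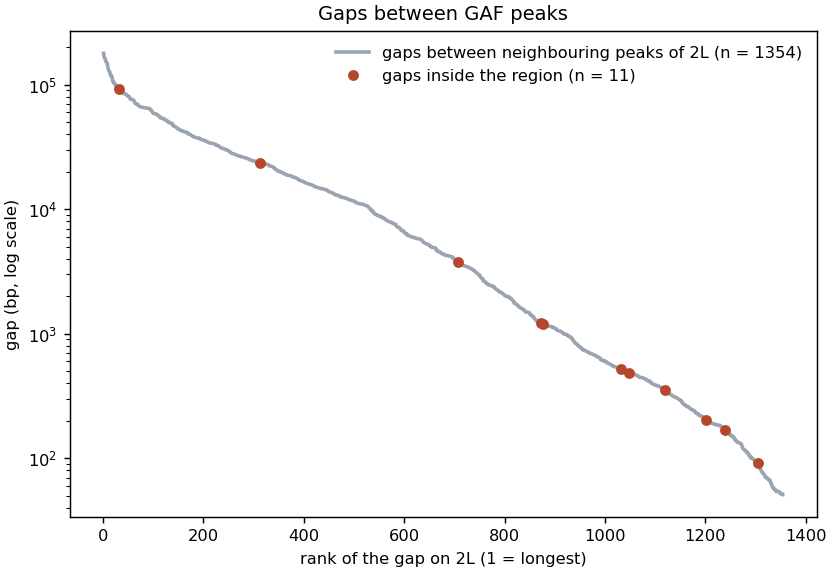
Gaps between neighbouring GAF peaks of 2L in bp on a log axis, by rank (line, 1354 gaps), with the 11 gaps inside the Wnt region as points. The 92555 bp gap ranks 32, while 8 of the 11 are under 2000 bp.

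The bounds of the region cut close to 1 peak. At the lower bound, the peak from 7199764 to 7200117 (354 bp, score 67.94) had its midpoint 60 bp outside and reached 117 bp into the region. The peak before that, from 7188229 to 7189055, scored 814.2. Past the upper bound the first peak, 7416128 to 7416361, lay 65801 bp after the last member, was 234 bp wide and scored 10.49.

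Scores within the region lay in a lower group of 8 peaks and a higher group of 4. The median over the 12 was 15.135, against 62.74 over 2L, with a lowest of 7.34 and a highest of 838.42. Scores under the lower quartile of the list, 18.09, were held by 7 of the 12, where 26.6% of the peaks of 2L fell under it. At or above the list median were 4 of 12, where the share on 2L was 49.8%. At or above the upper quartile of 292.7 were 2 of 12, with 28.0% on 2L. No member scored between 22.32 and 203.16, a band set by the members themselves in which 33.1% of the peaks of 2L lay.

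Each of the 4 strong peaks was wider than each of the 8 weak ones. The median width was 350.5 bp against 544 bp over 2L, and 4 of 12 were at or above the 2L median, where that share is 50.0% by construction. The 4 strong peaks were 611 to 1480 bp wide and made up 64.1% of the 6982 bp covered. The 8 weak ones were 216 to 531 bp wide. Among the 4 strong peaks, width and score had the same order, while among the 8 weak ones Spearman's rho was 0.238. Over all 12 members Spearman's rho of width and score was 0.776, beside 0.814 across the 1355 peaks of 2L. Width and score come from the same calls, and neighbouring peaks share the same libraries, so this is a description only.

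**Figure D3:**
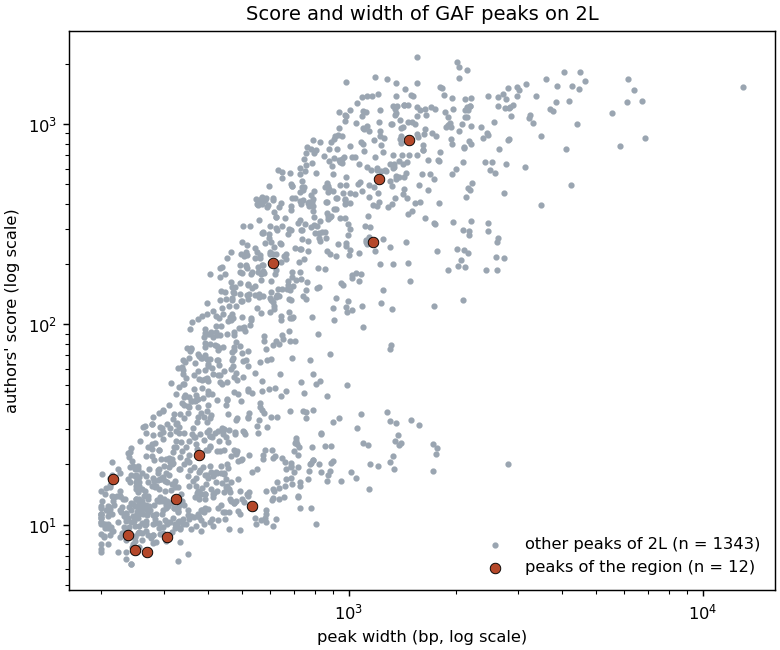
Authors' score against peak width in bp, both on log axes, for the peaks of 2L (grey, 1343 outside the region) and the 12 of the Wnt region (coloured). The members lie within the cloud of the arm as 4 wide peaks scoring 203.16 or more and 8 narrow ones scoring 22.32 or less.

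Most members lay close to a neighbour, though the first stood 23533 bp from the second. The median of the 11 inner gaps was 521 bp, against 4375 bp over 2L, and 8 of them were under 2000 bp, as were 40.5% of the gaps of 2L. A neighbour under 2000 bp away was present for 10 of the 12 members, with 58.6% of the peaks of 2L having one. Of the 8 weak members, 5 had a stronger peak within 1000 bp, and of the 680 peaks of 2L under the list median 48.5% did. The nearest stronger peak was 72227 bp away for the weak peak that scored 22.32.

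Crowding was somewhat above the middle of 2L by number of peaks and near the middle by covered length. The arm was divided into side-by-side stretches of 170 kb on a grid that includes the region, which gave 133 others. Of these, 96 held fewer than 12 peaks, 6 held 12 and 31 held more, with a median of 9 and a range of 1 to 60. The density was 70.6 peaks per Mb, against 58.9 over the arm. Covered length, 6982 bp or 4.11% of the region, exceeded that of 79 of the 133 stretches, whose median was 6252 bp. The position by number rested on weak and closely spaced peaks. Counting peaks at or above the list median alone, 43 stretches (32.3%) held fewer than the region's 4. A further 25 held 4 and 65 held more, with a median of 4. After joining peaks under 500 bp apart, 48.1% held fewer than the region's 7.

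The region had a low median score for a stretch of 2L, and its longest empty part was longer than that of most. Its number of peaks at or above the list median, 4, equalled the median of the 133 stretches. Its median score of 15.135 was higher than that of 7 of the 133 stretches, whose median was 104.8. Its highest score of 838.42 was higher than that of 61 of them. Its longest part without a peak, a measure chosen after the data were examined, was exceeded in 23 of the 133, where the median was 64956 bp. Among the 6 stretches that also held 12 peaks, the longest empty part ran from 34006 to 80790 bp, the highest score from 889.61 to 1832.23 and the covered length from 6163 to 17067 bp. The region thus had a longer empty part and a lower top score than each of those 6. Of the 133 stretches, 2 had at least as many peaks and at least as long an empty part, and both had higher top scores, 1242.15 and 1868.84. The stretches directly before and after the region held 6 peaks each, with highest scores of 814.2 and 869.55.

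**Figure D4:**
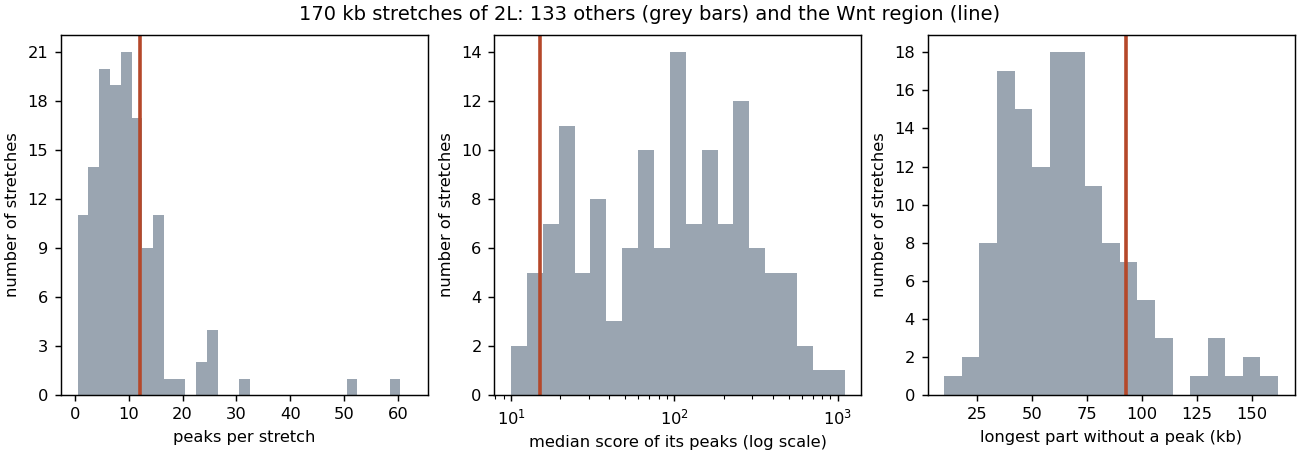
Number of 170 kb stretches of 2L by peaks per stretch, by median score of its peaks (log axis) and by longest part without a peak in kb, for 133 other stretches (grey bars), with the Wnt region as a line. The region lies at 12 peaks, above the median of 9, at a median score of 15.135, near the low end, and at a 92555 bp empty part, which 23 stretches exceed.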

How the data were processed

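The file used was the authors' deposited list of GAF peaks for 3 ChIP and 3 input libraries, with a score per peak. CASAVA (1.7.0.2 as well as 1.7.0.3), the aligner BWA, the peak caller MACS2 and the build BDGP5 are named in the submitters' processing notes, and per the file headers positions are on FlyBase release 5. Per the labels' protocols embryos were fixed in 1.8% formaldehyde for 15 min. Neither the calling threshold nor the pooling of libraries is given in the sources used here. Replicates were labelled as separate libraries, but no value per library was used.

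Listed starts count from 0 (the smallest is 0), so 1 was added for printing. Width is end minus listed start, and a gap is the bases between neighbouring peaks. Ranks were taken within the list. All 12 members are described. The members, gene lists and measures were chosen with earlier results of these data known. Counting was tested on simulated lists. Alternatives were joining under 500 bp, peaks at or above the median score, other bounds and other grids. The planned count of GAGAG in the Wnt promoters was not run, because no promoter sequence was used here. Scripts ran on Python 3.11.15 with pandas 2.3.3, numpy 2.4.6, matplotlib 3.10.9 and scipy 1.17.1.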

Additional observations from a re-analysis of the deposited data

How the results depend on the processing

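Of 21 values under alternatives, 12 stayed and 9 moved. Numbers and gaps stayed if within 1.5 times the main value, percents if within its 95% Wilson interval. That interval narrows as more items are counted, so the labels are not equally strict. A change from 59.4 to 51.1% of 133 stretches stayed. The members' median score, above 19.6% of the list and 21.3% of 2L, moved. The 12 peaks became 7 with joining under 500 bp and 4 when peaks under the list median were dropped. Widening or narrowing the region by 20 kb on each side gave 14 and 10, and any overlap gave 13. The share of stretches with fewer peaks, 72.2%, became 48.1% with joining. It became 32.3% with the weaker peaks dropped, where a further 18.8% tied with the region at 4. It stayed between 65.6 and 73.3% with stretches stepped every 10 kb, shifted by 85 kb, taken from 2L, 2R, 3L, 3R and X, or without those touching the 2 densest 100 kb windows. The share with less covered length, 59.4%, stayed between 51.1 and 60.3%. The median score of the members lay above 19.6% of the whole list and 21.3% of 2L. Their median width lay above 31.1% of the list, 27.0% of the arm peaks and 24.9% of 2L. The median gap rose from 521 bp to 2491 bp with joining and to 2594 bp without the weaker peaks. The longest part of the region without a peak went from 92555 to 119950 bp when those were dropped. Both that measure and that alternative were chosen after the data were examined. Fewer peaks enter by construction with joining and with the score threshold. No paired analysis was possible because all libraries share 1 list, and no library could be left out either. The alternatives for promoter motifs were not run. With depth unknown, how weak a peak could be detected was not measured.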
